A study of Drosophila melanogaster with 3 samples.

Results

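The genes described here encode the cyclins, cyclin-dependent kinases (Cdks) and E2F factors that drive the cell cycle of Drosophila melanogaster. The set was fixed by name and holds 10 of the 18164 genes of the annotation: the cyclin genes CycA, CycB, CycB3, CycD and CycE, the kinase genes Cdk1 and Cdk2, the phosphatase gene stg, and the transcription factor genes E2f1 and Dp. All 10 are protein-coding and were matched by symbol. Chromatin occupancy of CG33213 (named Boh1 in the annotation) was measured by ChIP-seq, in which DNA bound by a protein is recovered with an antibody and sequenced. The single group comprised whole embryos of pooled sex, 0 to 24 h old, from 1 transgenic line that stably expressed CG33213 with GFP at its C terminus, and the sample descriptions name an anti-GFP antibody. A separate antibody entry gives CG33213 itself, so whether untagged CG33213 was also recovered cannot be told from the labels. There were 3 biological replicates and no other condition, so the comparisons below run between genes, lists and replicates. The tagged protein is measured in a mixture of all embryonic cells, and binding in more cells cannot be told apart from stronger binding per cell. The promoter that drives the transgene is not given in the sources used here.

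Cyclins are the regulatory subunits that switch Cdks on at set stages of the cycle. Cyclin D and cyclin E act in G1 and at the entry into S phase, and the A- and B-type cyclins act with Cdk1 in mitosis. The Cdc25 phosphatase encoded by stg removes an inhibitory phosphate from Cdk1 and sets the timing of the later embryonic divisions in the fly. E2f1 and Dp form the dimer that activates genes of S phase. Early fly embryos divide on maternal stores of these proteins, and the zygotic genes take over later.

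Windows around the summits are shown first because the words they hold differ between the genes. Each optimal peak has a summit, the base of highest signal, and a window reached 50 bp to either side of it. The sequences below run 5′ to 3′ on the strand of the gene (dm6, RefSeq genome), and bases that belong to an exon were trimmed off. Capitals mark the DNA replication-related element TATCGATA (DRE, the site of the factor Dref), its part CGATA, the Motif 1 core GGTCACAC and the E-box CAGCTG, on either strand. The CycD window held none of the words searched.
CycA (chr3L:11833579-11833647, minus strand): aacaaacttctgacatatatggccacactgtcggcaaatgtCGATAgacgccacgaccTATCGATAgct
CycB3 (chr3R:24870830-24870930, minus strand): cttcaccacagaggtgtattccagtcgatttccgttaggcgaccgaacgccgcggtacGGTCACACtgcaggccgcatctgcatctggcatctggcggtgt
CycD (chrX:15910099-15910199, minus strand): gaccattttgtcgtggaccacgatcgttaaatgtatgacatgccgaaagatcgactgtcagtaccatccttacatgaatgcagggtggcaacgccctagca
Cdk2 (chr3R:20735508-20735608, plus strand): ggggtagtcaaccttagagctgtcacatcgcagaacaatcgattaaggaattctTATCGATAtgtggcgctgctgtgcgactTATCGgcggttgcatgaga
E2f1 (chr3R:21661015-21661115, minus strand): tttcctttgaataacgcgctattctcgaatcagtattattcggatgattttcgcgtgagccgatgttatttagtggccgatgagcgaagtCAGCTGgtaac

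Each replicate had a relaxed list of 30000 entries, as did the pooled alignments, and these relaxed lists hold peaks and background together. The optimal list held 4417 peaks thresholded by the irreproducible discovery rate. They were the 4417 entries of highest signal in the pooled list. Signal is the score that the authors' peak caller gave, and it was used to rank entries within a list, with rank 1 the strongest. Where signal values are printed or drawn, they are those of the pooled list. A summit was called found in a replicate when one of that replicate's 4417 strongest summits lay within 150 bp, and 62.4% of optimal summits were found in all 3. The depth of the libraries is unknown, since the files hold no read counts.

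Most of the genes carried a peak at the promoter. An optimal summit lay within 500 bp of a transcription start site (TSS) for 7 of the 10 genes, namely CycA, CycB, CycB3, CycD, Cdk2, E2f1 and Dp. Among 13945 protein-coding genes the share was 25.0%. With the gene body and 2 kb around each TSS counted, Cdk1 was added and the number rose to 8, against 34.1% of protein-coding genes. No optimal summit fell to CycE or stg. The promoter summit was found in all 3 replicates for 6 genes (16.9% of protein-coding genes), which leaves out Cdk2. With summits matched within 50 bp instead of 150 bp, 3 genes (CycB3, CycD and Dp) were found in all 3, against 12.1% of protein-coding genes. In the strongest peaks of replicates 1, 2 and 3 taken alone, 6, 7 and 6 of the 10 promoters held a summit. This made 63.3% ± 5.77 (SD, n = 3), and the same lists gave 24.6% ± 0.588 (SD, n = 3) for protein-coding genes. The members were chosen with earlier results known, so these shares are a description and no test was made.

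**Figure D1:**
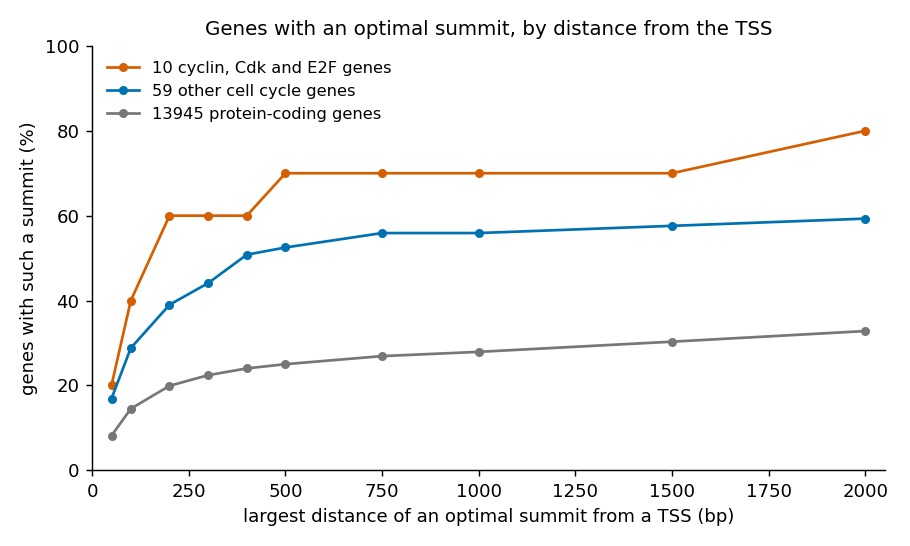
Share of genes (vertical axis, %) with an optimal summit no farther from a TSS than the distance on the horizontal axis (bp), for the 10 cyclin, Cdk and E2F genes, 59 other cell cycle genes and 13945 protein-coding genes. At 500 bp the shares are 70.0%, 52.5% and 25.0%, and the line of the 10 genes reaches 80.0% at 2000 bp, where Cdk1 enters.

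The 3 mitotic cyclin genes each held a single optimal summit, upstream of the TSS. CycB (FBgn0000405, 2R 22803521 to 22806948, minus strand), the partner of Cdk1 whose destruction lets cells leave mitosis, had the strongest promoter peak of the 10 genes. Its summit at 22807055 on 2R lay 107 bp upstream of the first of 3 TSS positions and ranked 594 of 4417. The nearest summits ranked 275, 1190 and 709 in replicates 1, 2 and 3. Relative to the other TSS positions of CycB the same summit stood at -556 and -752 bp, so neither had an optimal summit within 500 bp. CycB3 (FBgn0015625, 3R 24867934 to 24870816, minus strand), a B-type cyclin that acts late in mitosis, carried its summit 64 bp upstream of the TSS (3R, 24870880, rank 1649), with ranks of 1222, 2356 and 1977. For CycA (FBgn0000404, 3L 11826719 to 11833578, minus strand), needed for entry into mitosis, the summit stood 19 bp upstream (3L, 11833597, rank 2250), with ranks of 2146, 4213 and 2577. All 9 of these replicate ranks lay within the strongest 4417, and replicate 2 placed each of the 3 genes lowest. The replicate summits of CycA were spread more widely, at 28, -97 and -7 bp from the pooled one in genome coordinates.

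A stronger peak stood beyond the other end of CycB. Its summit at 22802940 lay 581 bp past the 3′ end of the gene, outside the distances set for assignment, and 3363 bp from the nearest TSS, which is one of CycB itself. By signal it was number 52 of the optimal peaks, and the replicates placed it at 48, 122 and 36. Among the closest unassigned optimal summits of the 10 genes, 8 lay within 161 bp of the TSS of another gene. The exceptions were the CycB summit and the one next to stg.

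**Figure D2:**
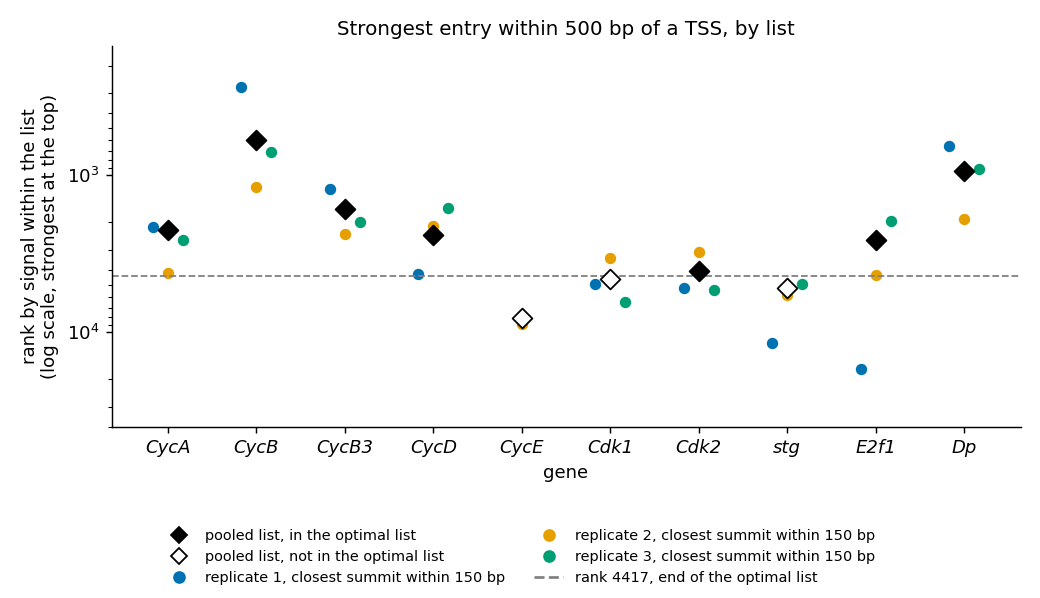
Rank by signal (vertical axis, log scale, strongest at the top) of the strongest pooled entry within 500 bp of a TSS of each gene (diamonds, filled if in the optimal list) and of the closest summit within 150 bp in each replicate (circles). The dashed line is rank 4417, the end of the optimal list; CycB and Dp stand highest, Cdk2 and Cdk1 lie on either side of the line, and CycE lies farthest below it.

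The G1 cyclin genes differed. CycD (FBgn0010315, X 15906822 to 15909676, minus strand), the partner of Cdk4 in growth and G1, had its optimal summit 473 bp upstream of its 1 TSS position (X, 15910149, rank 2421). This was the most distant of the 7 promoter summits, and it leaves the count when the promoter is limited to 250 bp. Replicates 1, 2 and 3 ranked the site 4237, 2093 and 1612. In replicate 2 the summit lay 46 bp farther from the TSS, past 500 bp, so the promoter of CycD was not counted for that replicate alone. CycE (FBgn0010382, 2L 15727581 to 15748150, minus strand), which triggers S phase with Cdk2, had no optimal summit over its 20.6 kb and 3 TSS positions. The closest one, at 15751123 on 2L (rank 2799), lay 2973 bp upstream of the gene and 45 bp from the TSS of ND-B17, a subunit gene of respiratory complex I. In the relaxed pooled list CycE held 6 entries, and none of them was matched in all 3 replicates at any rank. The strongest of those near a TSS ranked 8166, 425 bp upstream of the second TSS, with a summit within 150 bp in replicate 2 only (rank 8929). Another entry, of pooled rank 14912, matched a summit that ranked 3698 in replicate 1 and 21736 in replicate 3, and none in replicate 2. Of 638 protein-coding genes of 20 to 45 kb, 305 (47.8%) had no optimal summit in the gene or within 2 kb of a TSS. The share with one was 52.2% in this class, against 34.1% of all protein-coding genes. CycE lies at the lower end of the class.

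The kinase genes lay near the limit of the optimal list. Cdk2 (FBgn0004107, 3R 20735623 to 20738414, plus strand), the S-phase kinase, carried a summit 65 bp upstream of its TSS (3R, 20735558) that ranked 4103 of 4417. Replicate 2 ranked the site 3097, while replicates 1 and 3 ranked it 5268 and 5363, outside their strongest 4417. The Cdk2 summit was thus found in 1 of 3 replicates. The same summit lay within 500 bp of the TSS of the microRNA gene mir-995 and of other noncoding RNAs inside Cdk2. Cdk1 (FBgn0004106, 2L 10384739 to 10386262, minus strand), the mitotic kinase, was just outside. Its strongest promoter entry, 185 bp upstream of the TSS (2L, 10386447), ranked 4593 in the pooled list, and 4940, 3351 and 6447 in replicates 1, 2 and 3. In genome coordinates the replicate 2 summit stood at 133 bp from this entry. It was closer, at -67 bp, to another pooled entry, of rank 29906. The entry of rank 4593 lay between Cdk1 and mRpS7, a mitochondrial ribosomal protein gene transcribed away from Cdk1 with 400 bp between the TSSs. In signal, the Cdk2 peak had 106.4 and the Cdk1 entry 97.64, and the lowest value of the optimal list was 101. The optimal summit assigned to Cdk1 under the 2 kb distance stood at -1728 bp (2L, 10387990, rank 3459) and was found in all 3 replicates, with ranks of 3644, 2514 and 4145. It lay 115 bp from the TSS of da, the gene of the bHLH factor daughterless, which is nearer than that of Cdk1.

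At stg (FBgn0003525, 3R 29251826 to 29255800, minus strand), the Cdc25 gene, the promoter entry also fell short of the optimal list. The entry 59 bp downstream of a TSS, in the 5′ UTR (3R, 29255266), ranked 5206 in the pooled list. Replicates 1, 2 and 3 ranked it 11653, 5783 and 4920, so it was outside the strongest 4417 in each. An optimal summit stood 115 bp past the 3′ end of stg (3R, 29251711, rank 3878), with replicate ranks of 2738, 4134 and 8128. It lay 1260 bp from the nearest TSS, that of SP1029, and was not assigned to stg by the distances used.

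E2f1 and Dp, the subunits of the E2F dimer, were both bound at the first promoter but differed in the rest of the gene. E2f1 (FBgn0011766, 3R 21620304 to 21660871, minus strand) spans 40.6 kb with 5 TSS positions, and its 1 optimal summit lay 194 bp upstream of the first (3R, 21661065, rank 2596). The closest summits ranked 17137, 4341 and 1954 in replicates 1, 2 and 3. In replicate 1 that summit was 96 bp away, and a stronger one within 150 bp ranked 3549, so the site counts as found there only through the latter. With the closest summit alone, a rule added after seeing the data, 5 genes and not 6 were found in all 3 replicates. No share of protein-coding genes is given for that rule. Relative to the second TSS from the 5′ end, the summit stood at -633 bp. The closest optimal summit to the other 3, at the InR gene, lay 13300 bp or more away. That summit (rank 714) stood 911 bp past the 3′ end of E2f1 and 72 bp from the TSS of InR, the insulin receptor gene.

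Dp (FBgn0011763, 2R 13222433 to 13228202, plus strand) held 4 optimal summits in 5.77 kb, more than any other gene of the set. Such a number was reached by 131 of 13945 protein-coding genes (0.939%). All 4 were within 500 bp of one of its 3 TSS positions, and each TSS position had at least 1. The strongest (2R, 13222383, rank 943) lay 50 bp upstream of the first TSS and ranked 650, 1892 and 919 in replicates 1, 2 and 3. It also lay 45 bp upstream of the TSS of Fsn, an F-box protein gene transcribed the other way, with 95 bp between the TSSs, so the peak cannot be given to either gene alone. The summit 213 bp upstream of the second TSS (rank 1700) ranked 5181, 1682 and 1081. Another stood 373 bp downstream of that TSS (rank 1793), 498 bp from that of lncRNA:CR43918, and ranked 1366, 1278 and 5659. The last stood 341 bp upstream of the third TSS (rank 3270) and ranked 4820, 4116 and 3079. These 3 intronic summits were each found in 2 of 3 replicates, and the summit at the first TSS in all 3.

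**Figure D3:**
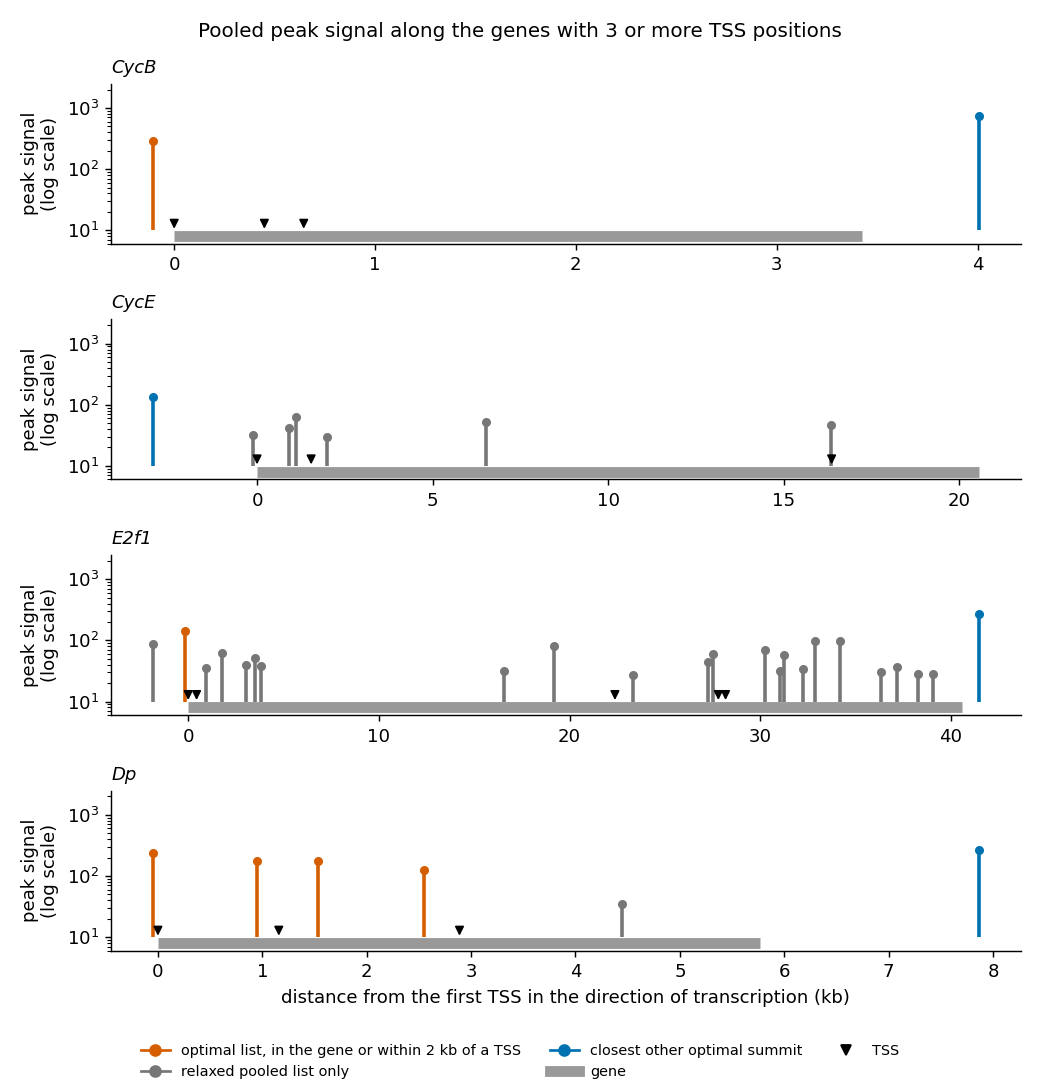
Pooled peak signal (vertical axis, log scale, the authors' score) along the 4 genes with 3 or more TSS positions, by distance from the first TSS in the direction of transcription (horizontal axis, kb). Dp holds 4 optimal summits near its 3 TSSs, E2f1 1 at its first TSS with 21 weaker entries, CycE 6 weaker entries alone, and the peak past the 3′ end of CycB (signal 748.4) is higher than that at its promoter (293.2).

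Of the 21 TSS positions of the 10 genes, 9 had an optimal summit within 500 bp, against 22.5% of the TSS positions of protein-coding genes. Genes with more TSS positions have more chances to be counted, and the share bound was 19.9% of protein-coding genes with 1 TSS position and 50.1% of those with 3 or more. In the set it was 4 of 5 genes with 1 TSS position (all but Cdk1) and 3 of 4 with 3 or more (all but CycE), while stg, with 2, was not bound (34.3% of protein-coding genes with 2). Divergent promoters, where the TSSs of protein-coding genes on opposite strands lie within 500 bp, were bound for 47.0% of genes, and other promoters for 16.7%. Cdk1 and Dp are divergent, and 1 of them was bound. The other 8 genes are not, and 6 of them were bound.

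In strength and position the promoter peaks of the set lay close to those of other bound genes. The strongest promoter summit of the 7 bound genes had a median rank of 2250, from 594 to 4103, and that of all 3482 bound protein-coding genes a median rank of 2011. The strongest 25% of the optimal list held 2 of the 7 (28.6%), CycB and Dp, against 28.7% of bound protein-coding genes. All 7 summits lay upstream of the TSS, at a median position of -65 bp, and 86.6% of bound protein-coding genes shared that side, with a median of -80 bp.

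**Figure D4:**
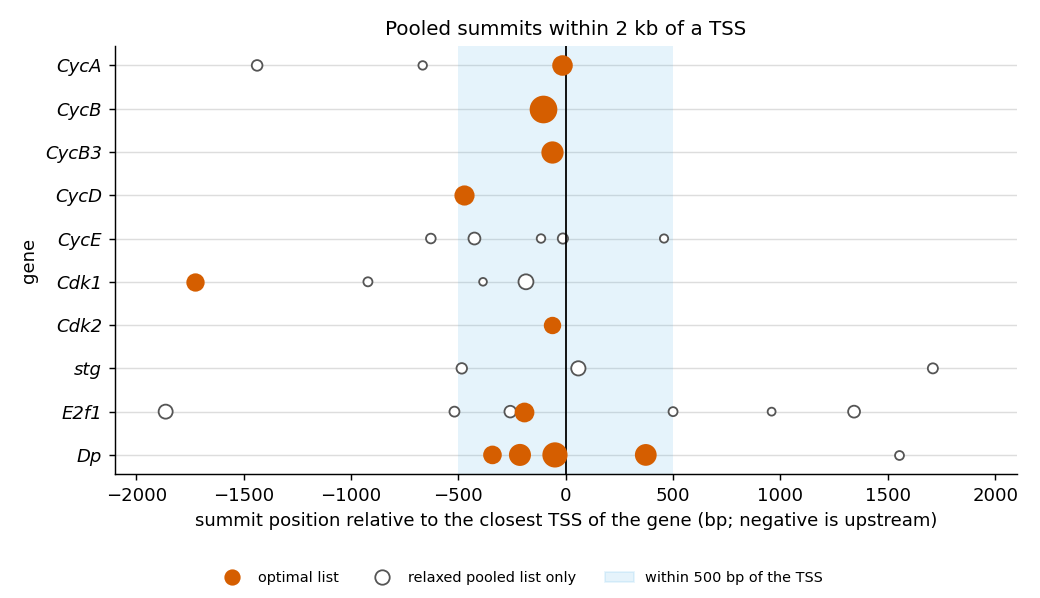
Summits of the pooled list within 2 kb of the closest TSS of each gene (horizontal axis, bp, negative upstream), with filled circles for the optimal list, open circles for the relaxed list only, and circle area in proportion to the peak signal. Of the 11 filled circles, 10 lie upstream, from -19 bp at CycA to -1728 bp at Cdk1, and 1 of the 4 at Dp lies downstream, at 373 bp.

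The words shown in capitals above were counted in the windows of the 11 optimal summits assigned to the set. DRE lay in 2 of the 11 (18.2%), those of CycA and Cdk2, at -11 and 8 bp from the summit in genome coordinates. It lay in 4.84% of all 4417 optimal windows and in 4.48% of 19252 windows of the same length, 101 bp, centred on TSS positions of protein-coding genes. Neither background is matched to the set by position. The summits of the set lie mostly upstream of the TSS, and the optimal windows include peaks away from promoters. The part CGATA, which each DRE holds on both strands, was present in 6 of 11 windows (54.5%), against 25.2% and 23.6%. These 6 belonged to CycA, CycB, Cdk1, Cdk2 and, for 2 of them, Dp. Motif 1 core stood in the CycB3 window alone, at -11 bp (9.09%, against 4.37% and 4.68%). The E-box word CAGCTG, the only E-box form searched, stood in the windows of E2f1 and Dp (18.2%, against 6.36% and 8.77%). With 150 bp on each side the E-box share was still 18.2%, against 16.8% and 17.9%, so it lay near its background. The Motif 6 core GGTATTT stood in a window of Dp (9.09%, against 5.07% and 3.76%). None of the 11 windows held one of the E2F words TTTGGCGC, TTTCGCGC, TTTCCCGC or TTTGCCGC, which lay in 2.06% of optimal windows and 2.35% of TSS windows. The GAGA word GAGAGAG (1.38% and 1.54%) and the Zelda word CAGGTAG (0.521% and 0.483%) were likewise not present. A match is a string in the reference and not evidence of a bound site. The windows of CycB, Cdk1 and Dp are not printed here.

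Weaker entries were looked for in the relaxed pooled list, which reaches background by construction. Every one of the 10 genes had an entry within 500 bp of a TSS there, but so did 54.6% of protein-coding genes. Beyond the optimal peaks, CycB, CycB3, CycD and Cdk2 had no further entry in the gene or within 2 kb of a TSS, Dp had 1, CycA 2, Cdk1 and stg 3 each, CycE 6 and E2f1 21. E2f1 thus held 22 entries in 42.6 kb, or 0.517 per kb, against a median of 0.232 per kb in protein-coding genes of 20 to 45 kb. Of the 638 genes in that length class, 22 (3.45%) had as many entries or more. That share compares counts and not densities, and shorter genes of the class have less span to hold entries. The span searched had a median of 31 kb in the class, against 42.6 kb for E2f1. For 7 of the 21 weaker E2f1 entries a summit was present in all 3 replicates at any rank, and for none of them among the strongest 4417 of all 3. The strongest 2 ranked 4687 and 4688, 6023 and 4678 bp downstream of the closest TSS of E2f1, the first in a 5′ UTR and the second in an intron. Of the annotated starts of all genes, that of the microRNA gene mir-11 was closest to the first, at 4099 bp.

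Promoter peaks were also counted at a second list of cell cycle genes, from which replication licensing genes were left out. That list held 60 symbols of cyclins and Cdks outside the set, Cdk regulators, the Rb and Myb complex, the anaphase-promoting complex and the spindle checkpoint, and 59 matched the annotation. An optimal summit lay within 500 bp of a TSS for 31 of the 59 (52.5%, against 25.0% of protein-coding genes). For 19 genes (32.2%, against 16.9% of protein-coding genes) it was found in all 3 replicates. Many of the 31 genes shared the summit with another gene. Of protein-coding genes with divergent promoters 47.0% were bound, and of the others 16.7%. The list is not split here by divergence or by number of TSS positions. By role, 5 of 6 spindle checkpoint genes were bound, both Cdk inhibitor genes dap and rux, 6 of 10 genes of kinases and phosphatases that act on Cdks, 4 of 8 of the Rb, E2F and Myb complex, 7 of 15 of cyclins and their kinases, 6 of 14 of the anaphase-promoting complex and its activators, and 1 of 4 of cyclin turnover and translation. The strongest promoter summit of these 31 genes had a median rank of 2672, against 2011 for all bound protein-coding genes. The strongest 25% of the optimal list held 1 of the 31 (3.23%), against 28.7% of bound protein-coding genes.

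The gene with the strongest promoter summit in that list was plu, part of the PNG kinase complex of the early embryonic cycles, at rank 758 (2R, 20263977). That summit lay within 500 bp of a TSS of the ribosomal protein gene RpS18 as well. The spindle checkpoint gene Bub3 followed at rank 1280 and shared its summit with the condensin gene Cap-D2. The mitotic kinase genes aurA and polo ranked 1312 and 1429, and the checkpoint genes mad2 and Mad1 1471 and 1660. The aurA summit was shared with CG3281 and the Mad1 summit with Drep2. Next came Cdk12, a kinase of RNA polymerase II, at rank 1695, and Cdk7, the Cdk-activating kinase and TFIIH subunit, at rank 1758 and shared with snf. Cks30A, a Cdk-binding subunit gene, ranked 1859, and tefu, the ATM kinase gene, ranked 2011 at a summit shared with Hsc70-4. All 10 of these summits were found in all 3 replicates, Cdk7 in replicate 3 only through a summit other than the closest one, which ranked 7774. Rbf, the Rb homologue that binds E2f1, ranked 4203 and Rbf2 4176, both near the end of the optimal list, while E2f2 and Cdk4 had no optimal promoter summit.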

How the data were processed

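The data are peak lists in narrowPeak format from TF ChIP-seq of 3 biological replicates of 1 group, and sonicated fragments of 200 to 800 bp were sequenced, per the labels. Per the deposited file lists, relaxed lists were made from the alignments of each replicate and of the pool with a control file, and the optimal list from the relaxed lists. Only dm6 lists were used. The signal score of each peak (column 7) is the authors' deposited value. The −log10 q deposited by the authors entered no result. The control was not analysed here, and the software behind the lists is not given in the sources used here. Depth is unknown, so no counting interval is given.

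Summit positions were compared with the BDGP6.54 annotation (Ensembl release 115), with transposable elements left out, and the RefSeq genome of the same build. No peak ended beyond its arm. Summits were assigned within 500 bp of a TSS, or inside the gene or within 2 kb of a TSS, and matched within 150 bp, with Python 3.11.15, numpy 2.4.6 and pandas 2.3.3. The assignment code was checked on summits placed at known distances. With 1 group, no statistical test was run, and the counts of the main results stand beside their background. Members, lists and words were chosen with earlier results of these data known. The named genes are the 10 members, the 10 other cell cycle genes with the strongest promoter summit and neighbours sharing or nearest to a summit; Rbf, Rbf2, E2f2, Cdk4, dap and rux were added after their values were seen.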

Additional observations from a re-analysis of the deposited data

How the results depend on the processing

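The count of 7 bound promoters was 6 with promoters of 250 bp and 7 with nearest-TSS assignment. It was 7 with TSSs of protein-coding transcripts and 6 to 7 in the strongest peaks of each replicate. Of protein-coding genes, 19.9% had an optimal summit within 200 bp and 22.4% within 300 bp, against 25.0% within 500 bp. No such share is given for nearest-TSS assignment or for TSSs of protein-coding transcripts. Promoters of 1000 or 2000 bp (7 and 8) and the whole relaxed list (10) could only keep or raise the count. Those wider settings therefore do not test it. With the 50% of optimal peaks of higher signal the count of bound promoters fell to 3, CycB, CycB3 and Dp. The count of 8 genes under the wider assignment also fell to 3. No share of protein-coding genes is given for that shorter list, so these counts have no background beside them. The 6 genes found in all 3 replicates became 3 (CycB3, CycD and Dp) with summits matched within 50 bp. They stayed at 6 (lowest and highest) when any 1 replicate was left out, a change that could only keep or raise the count. The median rank of the strongest optimal summit over 8 genes, 2335.5, was 2895, 2435 and 1965.5 for the closest summits in replicates 1, 2 and 3, and 2643 to 3122 without 1 replicate each. Windows of 100 and of 150 bp on each side gave Motif 1 core in 2 genes, where 50 bp gave 1. With 150 bp, CGATA stood in 63.6% of the windows, against 47.6% of optimal and 46.0% of TSS windows. The E-box word CAGCTG stood in 18.2%, against 16.8% and 17.9%, and DRE in 18.2%, against 9.17% and 7.09%. Ranking by the p column was not run, since it is -1 throughout. No paired analysis was possible because there is 1 group.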
